A study of Mus musculus with 12 samples.

Results

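The genes described here are 9 components of the tight junction, taken by symbol from a table of 19702 mouse genes: the plaque proteins Cgn, Tjp1 and Tjp3, the strand proteins Cldn1, Cldn3, Cldn4, Cldn7 and Ocln, and the adhesion molecule F11r. They were measured by RNA-seq of whole mouse corneas in 12 libraries, 3 in each of 4 groups, and each library pooled 6 corneas of 3 mice. Control corneas were neither injured nor treated. Vehicle corneas received benzalkonium chloride (BAK, an eye-drop preservative that injures the ocular surface) at 0.2%, 5 µl per eye once every day over 14 days, and are labelled as untreated. UCS and UCPRP corneas received the same BAK and in addition 5 µl of UCS or UCPRP at 20%, 3 times a day over 10 days. The series title calls UCS and UCPRP cord blood-derived biologics, and the labels do not expand the abbreviations. The sources used here do not give strain, age or sex, the order of the BAK and biologic days, or the time of harvest. Because each library is a pool, the spread between libraries is a spread between pools and not between single animals.

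Tight junctions seal the space between neighbouring epithelial cells near their apical border. Claudins and occludin form the strands in the membrane, F11r (JAM-A) is an immunoglobulin-type adhesion molecule beside them, and the ZO proteins (Tjp1 is ZO-1, Tjp3 is ZO-3) bind their cytoplasmic tails. Cingulin, encoded by Cgn, binds ZO-1 and links the junction to actomyosin and microtubules. In the cornea the seal lies between the flat cells at the surface of the epithelium, and occludin and ZO-1 are classic markers of that barrier. The corneal endothelium and vessels also make tight junctions, so RNA from a whole cornea mixes several sources.

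A few features of the libraries bear on all values that follow. Control replicate 2 had the lowest TMM scaling factor (0.825, against 0.994 to 1.067 in the other libraries) and the highest level among the 12 libraries for 8 of the 9 genes, Cldn1 being the exception. It also had the highest summed level of the 6 corneal epithelium markers (60880 CPM, counts per 1 M after TMM scaling, against 36490 and 28570 in Control replicates 1 and 3) and the group's lowest sum of 7 retina markers (2834 against 7885 and 6759 CPM). The retina sums ran from 2141 to 9985 CPM in Vehicle, 3799 to 8085 in UCS and 4058 to 12790 in UCPRP. Sums of 6 lens markers ran from 278.3 to 7633 CPM in Control and 146 to 5154 in Vehicle. They ran from 21.47 to 7104 CPM in UCS and 142.6 to 15720 in UCPRP. Sums of 6 skeletal muscle markers were 6.998 to 278.4 CPM in Control, 155.6 to 1025 in Vehicle, 28.39 to 213.5 in UCS and 6.272 to 405.4 in UCPRP. The part of lens and muscle RNA in the levels of the 9 genes was not tested. The cornea label held for Control, where Krt12, the keratin of differentiated corneal epithelium, had 15900 to 32870 CPM, whereas it had 7.18 to 23.9 CPM in Vehicle. UCPRP replicate 1 had 185.6 CPM of Krt12, against 7.55 and 3.29 CPM in the other UCPRP libraries.

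In uninjured corneas Cldn7, F11r and Cldn4 gave the most RNA per gene length and Ocln the least. The mean Control level per kilobase of exon was 137.1 ± 54.4 CPM (SD, n = 3 here and throughout) for Cldn7, 120.2 ± 29.9 for F11r, 120.2 ± 32.4 for Cldn4 and 86.4 ± 31.7 for Tjp3. These 4 genes overlapped in range. Tjp1 lay below all of them at 52.3 ± 8.3 CPM per kilobase. Cldn3 at 32.3 ± 12.5 overlapped both Tjp1 and, on the lower side, Cgn at 24.5 ± 2.6. Cldn1 (17.3 ± 1.7) lay below every Control value of Cgn, and Ocln (10.6 ± 2.1) below every Control value of Cldn1. In Vehicle, Cgn stood at 13.1 ± 1.7 and Cldn1 at 16.5 ± 4.1 CPM per kilobase, with overlapping ranges, and Cldn7 still had the highest mean at 96.8 ± 8.1.

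Vehicle was compared with Control to ask how BAK injury altered these transcripts. Cgn and Cldn4 fell, and no gene of the 9 rose. The means of all 9 were lower in Vehicle, although with scaling to total counts Cldn1 was higher by 0.044 on the log2 scale. The 2 genes called lower at an adjusted p under 0.05 (edgeR's quasi-likelihood test, as for all gene tests here) compare with 6.92% of the 16124 genes tested that were called lower and 9.58% called higher. In 6 of the 9 genes every Vehicle library lay below every Control library (Cgn, Cldn3, Cldn4, Tjp3, Ocln and F11r), against 15.4% of all genes. The median log2 fold change was −0.50 over the 9 genes and −0.001 over all genes tested. In a bulk sample, fewer cells of a type and less RNA per cell cannot be told apart.

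**Figure D1:**
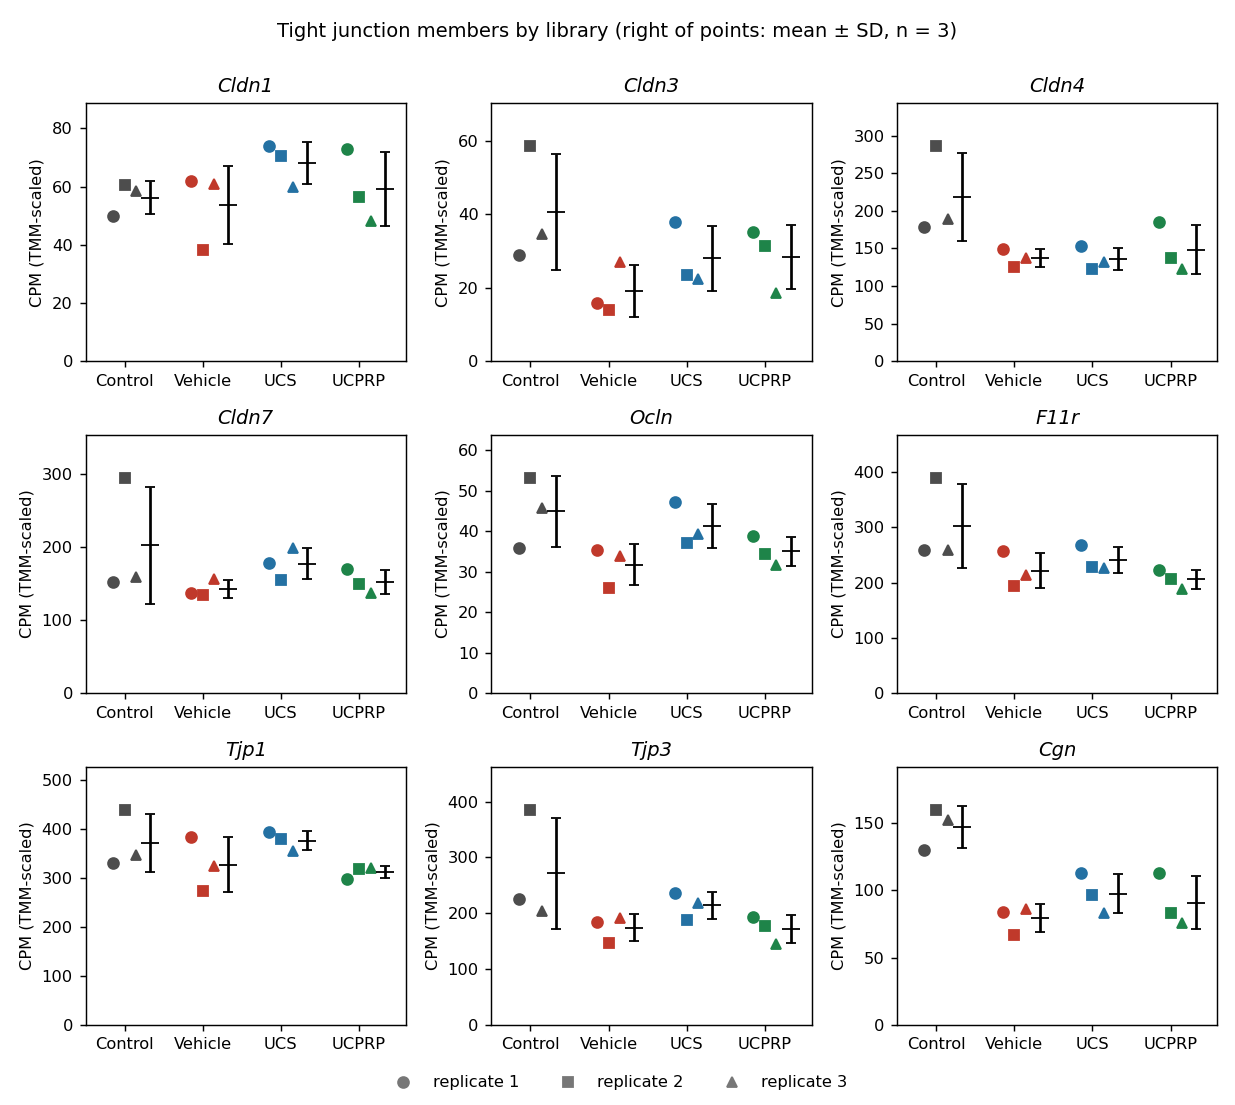
Level of each of the 9 genes (vertical axis, TMM-scaled CPM from 0) in the 12 libraries, by group. Points are libraries, with shapes for replicate numbers, and the bars give mean ± SD of 3 libraries. Cgn shows 3 Control libraries at 129.8 CPM or more and every other library at 113.1 or less, whereas Cldn1 and Tjp1 overlap between Control and Vehicle.

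Among the plaque genes Cgn showed the largest drop. Cgn (Entrez 70737, GRCm38 chromosome 3, 94760069 to 94786492, minus strand) had 129.8, 160 and 152 CPM in Control replicates 1 to 3 and 84.0, 67.1 and 86.1 CPM in Vehicle. The groups were far apart. From 147.3 ± 15.7 CPM in Control the mean dropped to 79.1 ± 10.4 CPM in Vehicle, or by 46.3%, a log2 fold change of −0.90 (SE 0.17, 95% interval −1.27 to −0.52, adjusted p = 0.00402 by edgeR). This call held with each of the 12 libraries left out (log2 fold change −0.98 to −0.78, adjusted p from 0.00205 to 0.0196 by edgeR) and under the 11 other alternatives.

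Tjp1 (Entrez 21872, chromosome 7, 65296165 to 65527781, minus strand), the scaffold to which cingulin binds, had 329.8, 439.9 and 346.6 CPM in Control and 384.8, 272.9 and 325.1 CPM in Vehicle. The libraries of both groups interleaved. Its log2 fold change was −0.18 with an interval from −0.51 to 0.14 (adjusted p = 0.475 by edgeR), so a change of the size seen for Cgn lay outside the interval. Tjp3 (Entrez 27375, chromosome 10, 81273207 to 81291581, minus strand) had 225.9, 385.6 and 203.1 CPM in Control and 183.7, 146.1 and 192 CPM in Vehicle. The groups did not overlap, but Control replicate 2 stood far above its own group. The log2 fold change of Tjp3 was −0.64 (SE 0.23, adjusted p = 0.0789 by edgeR), and −0.31 without Control replicate 2. Its exons share 40 bases with Apba3 on the opposite strand, and whether the counting used strand is not stated.

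Among the strand genes the claudins did not move alike. Cldn4 (Entrez 12740, chromosome 5, 134945119 to 134946934, minus strand), a barrier-forming claudin with 1 exon, had 178.9, 285.9 and 189.7 CPM in Control and 149.6, 124.9 and 137.8 CPM in Vehicle. The groups did not overlap. From 218.2 ± 58.9 CPM the mean dropped to 137.5 ± 12.4 CPM, or by 37% (log2 fold change −0.67, SE 0.20, interval −1.10 to −0.23, adjusted p = 0.0407 by edgeR). This call depended on single libraries: the log2 fold change was −0.43 (adjusted p = 0.149 by edgeR) without Control replicate 2, and the adjusted p was 0.0687, 0.137 and 0.089 by edgeR without Vehicle replicate 1, 2 or 3. It was also 0.0544 to 0.0558 by edgeR without UCS replicate 2, UCS replicate 3 or UCPRP replicate 2, at log2 fold changes of −0.66 to −0.67. With all libraries kept it was 0.105 by edgeR with Dbp as a covariate. Dbp, an output gene of the circadian clock, had 238, 280.3 and 21.9 CPM in Control and 14.7, 25.9 and 163.5 CPM in Vehicle. With the 2 groups alone the adjusted p was 0.0865 by edgeR.

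Cldn3 (Entrez 12739, chromosome 5, 134986214 to 134987472, plus strand), a close relative of Cldn4 and its neighbour on the chromosome, had 28.8, 58.5 and 34.5 CPM in Control and 15.9, 14.1 and 27.1 CPM in Vehicle. The groups did not overlap, with Vehicle replicate 3 just under Control replicate 1. Its log2 fold change of −1.09 was the lowest of the 9 genes, with an SE of 0.35 and an adjusted p of 0.0553 by edgeR. Without Control replicate 1, Vehicle replicate 3 or UCPRP replicate 3 it passed the threshold (log2 fold changes of −1.29, −1.44 and −1.09, adjusted p = 0.0466, 0.0278 and 0.0472 by edgeR).

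Cldn7 (Entrez 53624, chromosome 11, 69964779 to 69967885, plus strand), a claudin that many epithelia also hold along the lateral membrane, had 152.8, 295.2 and 159.6 CPM in Control and 137.4, 134.8 and 156.8 CPM in Vehicle. Vehicle replicate 3 overlapped the Control range, and Control replicate 2 set the group mean: the log2 fold change was −0.50 (adjusted p = 0.163 by edgeR) and −0.13 without that library. Cldn1 (Entrez 12737, chromosome 16, 26356642 to 26371841, minus strand), the claudin whose loss opens the epidermal barrier in mice, had 49.8, 60.5 and 58.3 CPM in Control and 62.0, 38.2 and 60.8 CPM in Vehicle. A pair of the Vehicle libraries lay above every Control library and the other below. Its log2 fold change was −0.07 with an interval from −0.50 to 0.36 (adjusted p = 0.876 by edgeR).

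Ocln (Entrez 18260, chromosome 13, 100496507 to 100552718, minus strand) had 35.8, 53.2 and 45.7 CPM in Control and 35.4, 26.0 and 34.0 CPM in Vehicle. The groups did not overlap but nearly touched at Control replicate 1 and Vehicle replicate 1. The log2 fold change was −0.50 (SE 0.17, adjusted p = 0.0661 by edgeR), and −0.64 with an adjusted p of 0.027 by edgeR without Control replicate 1. F11r (Entrez 16456, chromosome 1, 171437535 to 171464603, plus strand) had 258.5, 389.7 and 259.8 CPM in Control and 257.6, 194.7 and 213 CPM in Vehicle. These groups, too, nearly touched. Its log2 fold change was −0.45 (SE 0.17, adjusted p = 0.109 by edgeR) and −0.23 without Control replicate 2.

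**Figure D2:**
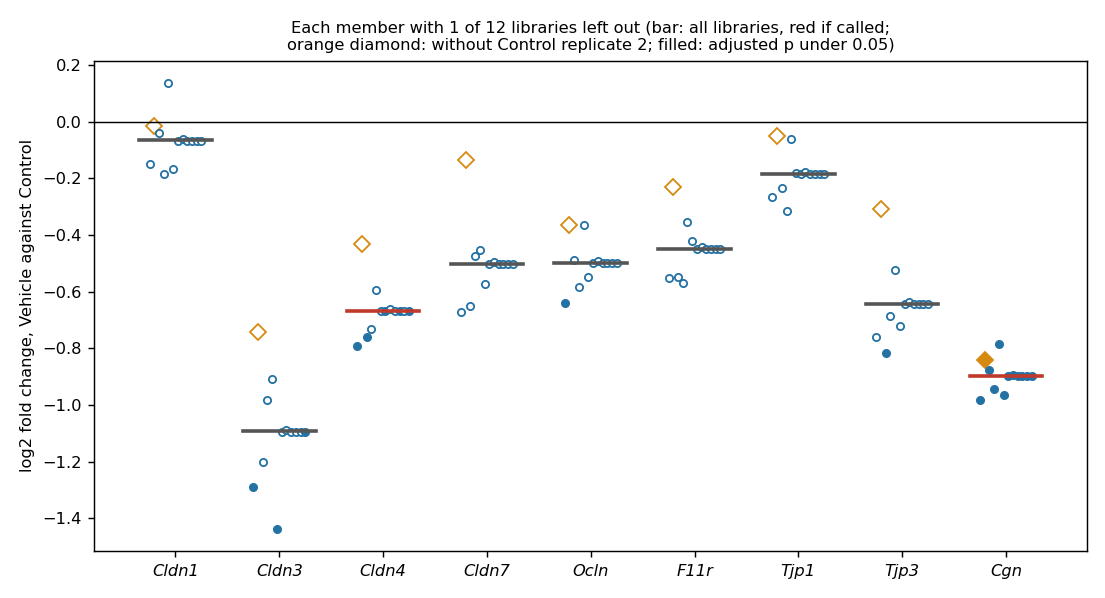
Log2 fold change of Vehicle against Control (vertical axis) for each gene with 1 of the 12 libraries left out. Bars give the value with all libraries, diamonds the value without Control replicate 2, and filled points an adjusted p under 0.05 by edgeR. Cgn stays between −0.98 and −0.78 with all points filled, whereas Cldn7 ranges from −0.67 to −0.13.

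The proportions of the junction transcripts can also be set within each library. The 5 pairs taken were chosen after their values were seen and are given with no test. The ratio of Cgn to Tjp1 counts was 0.394, 0.364 and 0.439 in Control and 0.218, 0.246 and 0.265 in Vehicle, with no overlap. It was 0.286, 0.254 and 0.234 in UCS and 0.378, 0.26 and 0.238 in UCPRP, where replicate 1 alone reached the Control range. That library is the one with 185.6 CPM of Krt12. The ratio of Cldn3 to Cldn1 was 0.579 to 0.967 in Control and 0.257 to 0.445 in Vehicle, again with no overlap. The other pairs overlapped between Control and Vehicle. Tjp3 to Tjp1 was 0.586 to 0.877 in Control and 0.477 to 0.59 in Vehicle, and Cldn7 to Cldn1 was 2.74 to 4.88 and 2.22 to 3.53. The ratio of Cldn4 to Cldn1 was 3.25 to 4.72 in Control, 2.27 to 3.26 in Vehicle, 1.75 to 2.21 in UCS and 2.44 to 2.56 in UCPRP, so that both biologic groups lay below Control and UCS also below Vehicle.

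**Figure D3:**
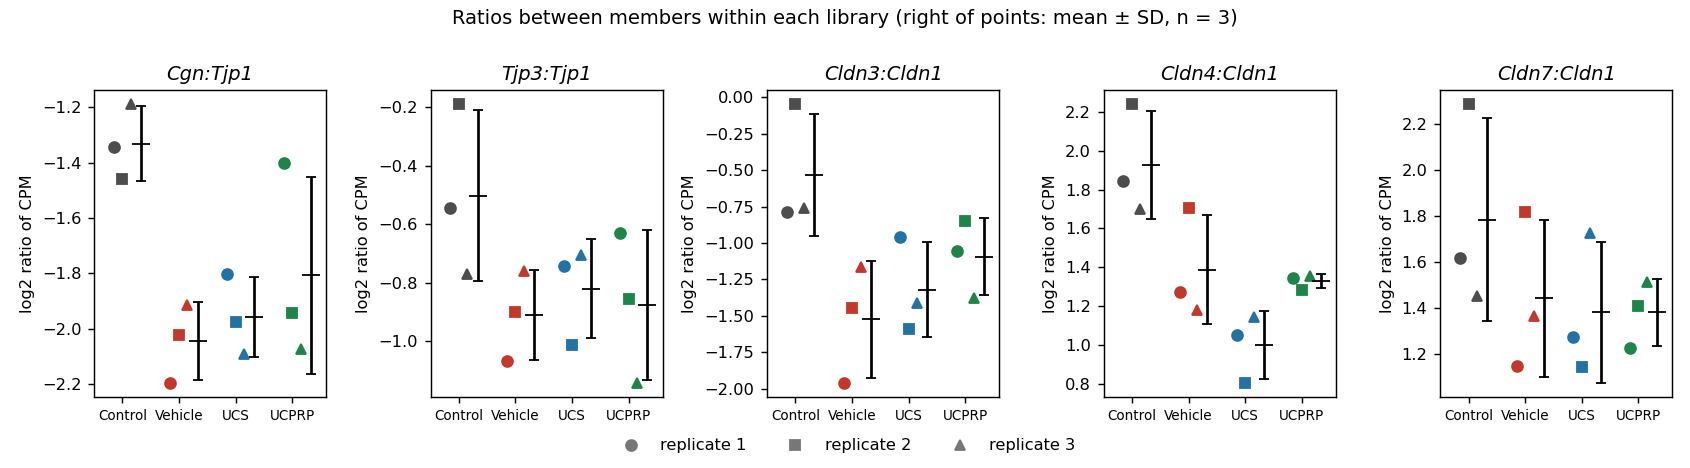
Log2 ratio of the CPM of a pair of genes within each library (vertical axes, which do not start at 0), by group, with mean ± SD of 3 libraries. For Cgn to Tjp1 the Control libraries lie at −1.46 to −1.19 and the Vehicle libraries at −2.20 to −1.92.

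Markers of the cells that carry tight junctions moved in different directions. All 6 corneal epithelium markers fell in Vehicle, and their sums were 28570 to 60880 CPM in Control and 1643 to 2684 CPM in Vehicle. All 7 conjunctiva and goblet markers rose, with sums of 2524 to 5734 CPM in Control and 12440 to 18120 CPM in Vehicle. Of 11 pan-epithelial markers 3 rose (Krt14, Krt19 and Epcam) and 3 fell (Krt5, Prom2 and Esrp1). Their sums were 13400 to 24880 CPM in Control and 12250 to 14430 CPM in Vehicle, with overlap. The mean log2 CPM of the list leaned the other way, with 7.42 to 7.86 in Control and 7.67 to 7.98 in Vehicle. With that mean as a covariate 7 of the 9 genes were called lower in Vehicle (all but Tjp1 and Cldn1), against 11.3% of all genes in that fit, and with the mean of the retina markers 5 were, against 9.58% of all genes. The pan-epithelial mean includes genes that themselves changed in Vehicle, so the added calls cannot be read as a correction for epithelial content. The summed corneal endothelium markers were 1340 to 1459 CPM in Control and 1344 to 1760 CPM in Vehicle. The part of the conjunctival and corneal epithelial markers in the fall of Cgn and Cldn4 was not tested.

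The ratio of each gene to Cdh1, which encodes the adherens junction protein E-cadherin, gives a second scale, on which fewer genes lay apart. Cdh1 itself had 224.2, 200.9 and 250.9 CPM in Control and 335.2, 274.8 and 188.9 CPM in Vehicle, and the groups overlapped. Cgn per Cdh1 was 0.579 to 0.796 in Control and 0.244 to 0.456 in Vehicle, with no overlap. Cldn4 per Cdh1 was 0.756 to 1.42 in Control and 0.446 to 0.73 in Vehicle, also apart. The other 7 genes overlapped between the groups, among them 4 that had lain apart in CPM. For these the ratio to Cdh1 was 0.809 to 1.92 in Control and 0.532 to 1.02 in Vehicle (Tjp3), 0.129 to 0.291 and 0.0476 to 0.143 (Cldn3), 0.16 to 0.265 and 0.0945 to 0.18 (Ocln), and 1.04 to 1.94 and 0.709 to 1.13 (F11r). Tjp1 per Cdh1 was 1.38 to 2.19 in Control and 0.993 to 1.72 in Vehicle. Cgn per Cdh1 was 0.343 to 0.501 in UCS, below Control, and 0.353 to 0.588 in UCPRP, which reached into the Control range.

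The comparisons of UCS and UCPRP with Vehicle ask whether the biologics altered the injured state. None of the 9 genes passed the test in either comparison, and none of the 16124 genes did (0% called by edgeR; 782 genes for UCS and 1572 for UCPRP had an unadjusted p under 0.05). DESeq2 called 2 genes higher and 12 lower for UCS and 5 higher and 140 lower for UCPRP, none of them among the 9, and limma-voom called 0 in both. Without Vehicle replicate 3, edgeR called 2 genes higher and 35 lower for UCS and 19 higher and 176 lower for UCPRP, again none of the 9. In UCS the means of 8 genes were higher than in Vehicle, with a median log2 fold change of 0.30 over the 9 against −0.007 over all genes. Ocln was the gene whose libraries did not overlap, with 47.3, 37.1 and 39.3 CPM in UCS against 35.4, 26.0 and 34.0 in Vehicle, where 5.02% of all genes lay apart and higher. Its log2 fold change was 0.38 (SE 0.17, interval 0.01 to 0.74, unadjusted p = 0.0445 and adjusted p = 0.9998 by edgeR).

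Cgn had 113, 96.2 and 83.4 CPM in UCS, within or above the Vehicle range of 67.1 to 86.1 CPM. Its log2 fold change against Vehicle was 0.30 (interval −0.07 to 0.67). Cldn4 had 152.8, 123 and 132.1 CPM in UCS and showed the smallest difference from Vehicle, a log2 fold change of −0.02 (interval −0.45 to 0.42). Cldn3 had 38.0, 23.4 and 22.5 CPM in UCS, a log2 fold change of 0.56 with the widest interval of the 9 genes (−0.21 to 1.32).

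In UCPRP the means of 6 genes were higher than in Vehicle and those of Tjp1, Tjp3 and F11r lower, with a median log2 fold change of 0.11 against 0.03 over all genes. No gene of the 9 had an unadjusted p under 0.05 by edgeR, and none had separate libraries (7.13% of all genes lay apart and lower, 6.68% higher). Cgn had 113, 82.8 and 76.0 CPM, a log2 fold change of 0.20 (interval −0.17 to 0.57), and UCPRP replicate 1 was the library above the Vehicle range. Cldn4 had 185.3, 137.2 and 123 CPM, a log2 fold change of 0.11 (interval −0.32 to 0.54). The same replicate was again the highest, here inside the Control range of 178.9 to 285.9 CPM. Its Slurp1 and Lypd2 levels, 6.03 and 8.06 CPM, were also the highest among the injured libraries. So was its sum of the 6 corneal epithelium markers (3905 CPM, against 3593 CPM in UCS replicate 1, the next highest). Pax6 and Tkt did not set it apart. Its Pax6 (527.9 CPM) lay below UCS replicates 1 and 2 (576.1 and 541.7), and its Tkt (1005) below UCPRP replicate 3 (1024). Its Aldh3a1 (2172 CPM) was the highest among the injured libraries, though close to that of UCS replicate 1 (2150). The part of these markers in its Cgn and Cldn4 levels was not tested.

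Set against Control, with which the Vehicle comparison shares its libraries, the biologic groups kept lower Cgn. In UCS Cgn (−0.60, SE 0.17, adjusted p = 0.0451 by edgeR) and Cldn4 (−0.68, SE 0.20, adjusted p = 0.0489 by edgeR) were called lower, as were 4.47% of all genes, and these 2 genes also had separate libraries, against 14% of all genes. Both calls lay close to the threshold. Without UCS replicate 3 Cgn was at −0.50 (adjusted p = 0.175 by edgeR), and without Control replicate 2 Cldn4 was at −0.44 (adjusted p = 0.18 by edgeR). Over the 12 fits with 1 library left out, Cgn was called in 4 and Cldn4 in 2, at log2 fold changes of −0.71 to −0.50 and −0.81 to −0.44.

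In UCPRP Cgn alone was called lower (−0.70, SE 0.17, adjusted p = 0.0233 by edgeR), as were 5.07% of all genes. Without Control replicate 2, Control replicate 3, UCPRP replicate 2 or UCPRP replicate 3 its adjusted p was 0.0699, 0.0613, 0.0922 and 0.0958 by edgeR, at log2 fold changes of −0.67, −0.68, −0.64 and −0.59. The libraries of 4 genes lay apart and lower (Cgn, Tjp1, Tjp3 and F11r), against 13.7% of all genes. For F11r, with 222.3, 206.4 and 189.1 CPM in UCPRP, the log2 fold change was −0.56 (adjusted p = 0.0669 by edgeR). Cldn1 had means above Control in both biologic groups, at log2 fold changes of 0.28 in UCS (interval −0.15 to 0.71) and 0.07 in UCPRP (interval −0.36 to 0.50).

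**Figure D4:**
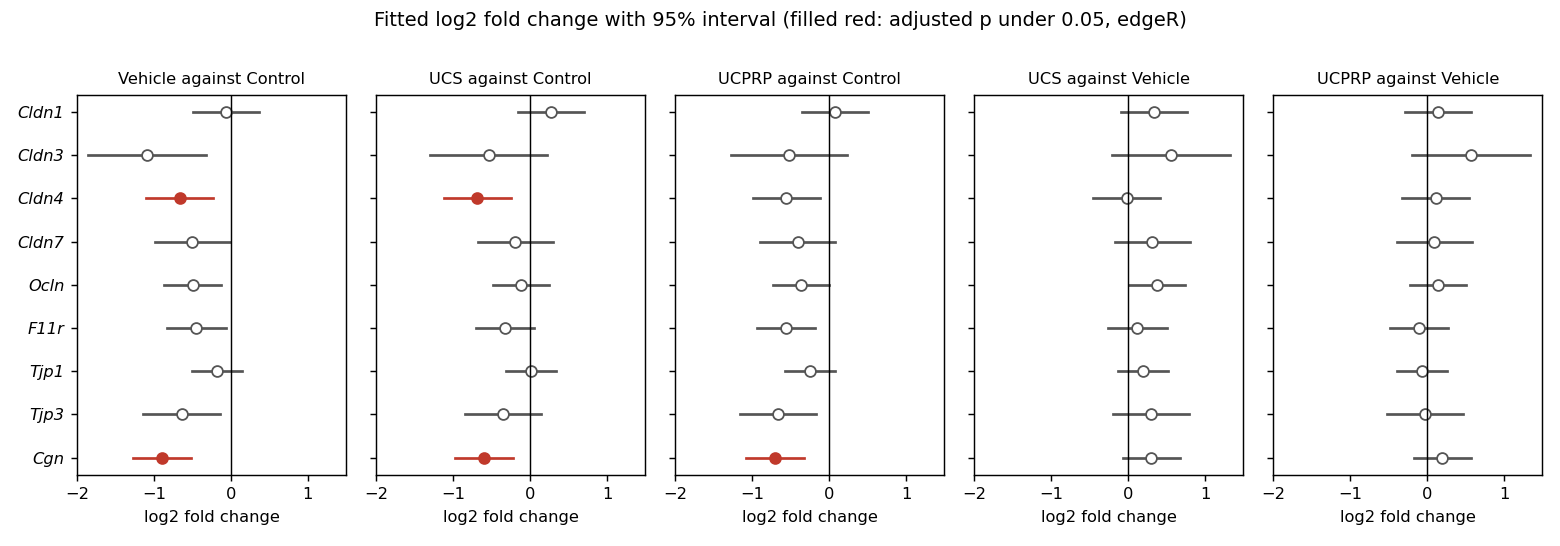
Fitted log2 fold change (horizontal axis) of the 9 genes with its 95% interval in 5 comparisons. Filled red points passed an adjusted p under 0.05 by edgeR. Cgn passed in all 3 comparisons with Control and Cldn4 in those of Vehicle and UCS, and no point passed against Vehicle.

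UCPRP and UCS were given at the same dose, and none of the 9 genes differed between them by edgeR, nor any of all genes tested (0%; 393 genes had an unadjusted p under 0.05). The means of 7 genes were lower in UCPRP, with a median log2 fold change of −0.22 against 0.02 over all genes. Tjp1 had 298.9, 318.6 and 320.2 CPM in UCPRP and 393.6, 378.9 and 355.9 CPM in UCS, and F11r 189.1 to 222.3 and 227 to 268.1 CPM. The libraries of these 2 genes lay apart, as did those of 5.73% of all genes in that direction. The log2 fold change of Tjp1 was −0.27 (interval −0.59 to 0.06, adjusted p = 0.986 by edgeR).

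Within groups the 9 genes varied together. Over the 12 libraries all 36 pairs of genes had a positive correlation of log2 CPM (0.24 to 0.94, median 0.78), and so had the deviations from the group means (0.34 to 0.92, median 0.75). All pairs share the libraries and their scaling, so this is a description. The mean of the standardised levels was highest in Control replicate 2 (1.98) and lowest in Vehicle replicate 2 (−1.45) and UCPRP replicate 3 (−0.96). The last 2 had the highest retina sums of their groups (9985 and 12790 CPM), and Control replicate 2 the lowest of its group. The genes whose log2 CPM followed this mean most closely, among the 12887 genes at 5 CPM or more on average, were Wwc1 (r = 0.98), Rab27b (0.98), Bnipl (0.97), Epn3 (0.97) and Rhpn2 (0.97). Those closest to Cgn were Mtus1 (0.98), Cobl (0.98), Abcd3 (0.98), Ano10 (0.97) and Pm20d1 (0.97).

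Beyond the 9 genes, lists of other junction genes held calls in either direction in Vehicle. Over all genes tested 9.58% were called higher and 6.92% lower. Of 20 other claudins listed, 10 could be tested, 1 rose and 1 fell (median log2 fold change −0.22), which is near those shares. Cldn8, a barrier claudin of kidney and gut epithelia, had 3.45, 3.97 and 3.83 CPM in Control and 8.52, 4.93 and 8.93 CPM in Vehicle. It rose by a log2 fold change of 0.99 (adjusted p = 0.0186 by edgeR). Against Control it was also called higher in UCS (9.48 to 15.7 CPM, log2 fold change 1.68) and UCPRP (10.1 to 12.5 CPM, 1.56). These UCS and UCPRP calls held in every fit with 1 library left out. Against Vehicle, Cldn8 was called in neither biologic group. Cldn17, a claudin that forms anion pores, fell by 1.11, 1.10 and 1.08 on the log2 scale in Vehicle, UCS and UCPRP against Control. The Vehicle call of Cldn8 was lost without Control replicate 1, Vehicle replicate 1 or Vehicle replicate 3 (adjusted p up to 0.0671 by edgeR), and that of Cldn17 without any of the Control libraries or Vehicle replicates 2 or 3 (up to 0.0871). The Cldn17 calls in UCS and UCPRP held in 5 and 3 of these 12 fits (adjusted p up to 0.147 and 0.142 by edgeR).

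Among 15 further plaque proteins 1 rose and 2 fell in Vehicle (median −0.05), where 9.58% of all genes were called higher and 6.92% lower. Amot, the angiomotin that binds YAP at junctions, rose from 9.37, 6.35 and 9.58 CPM to 20.2, 19.1 and 22.0 CPM (log2 fold change 1.27, adjusted p = 0.000318 by edgeR), and the call held without any 1 library. Ybx3, the Y-box factor ZONAB that ZO-1 binds, fell by 0.90 and Amotl2 by 0.57 on the log2 scale. The call of Ybx3 was lost without Vehicle replicate 1 or 2 (adjusted p up to 0.0608 by edgeR), and that of Amotl2 in 8 of 12 such fits (up to 0.145), those without Control replicate 2, any Vehicle or UCPRP library or UCS replicate 2. Against Control, Ybx3 (−0.90 and −0.84) and Amot (0.71 and 0.57) were also called in UCS and UCPRP, and Patj, a PDZ scaffold (−0.53), and Tjap1 (0.47) in UCPRP. With 1 library left out, Ybx3 was called in 9 and 8 of 12 fits, Amot in 11 and 2, Patj in 1 and Tjap1 in 5. Of 5 tricellular and MARVEL proteins none was called in Vehicle, and Marveld3 rose in UCS against Control (0.65, called in 8 of 12 such fits). Of 4 tested relatives of F11r only Esam rose (0.79, adjusted p = 0.0157 by edgeR, and 0.0548 without Control replicate 2). Esam is an adhesion molecule of vessel endothelium, and the summed vessel markers, Esam among them, were 70.7 to 107.1 CPM in Control and 127.6 to 132.1 in Vehicle.

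Of 10 apical polarity proteins 2 fell in Vehicle (median −0.33), where 6.92% of all genes were called lower. Llgl2, a lateral polarity protein, fell by 0.76 on the log2 scale and was called in all 12 fits with 1 library left out. Pard6g, a PAR6 subunit, fell by 0.41, with adjusted p up to 0.127 by edgeR where a Control library, Vehicle replicate 2 or 3 or UCS replicate 2 was left out. Both were also called lower than Control in UCS (−0.57 and −0.54, in 5 and 10 of 12 such fits) and in UCPRP (−0.59 and −0.73, in 9 and 12).

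**Figure D5:**
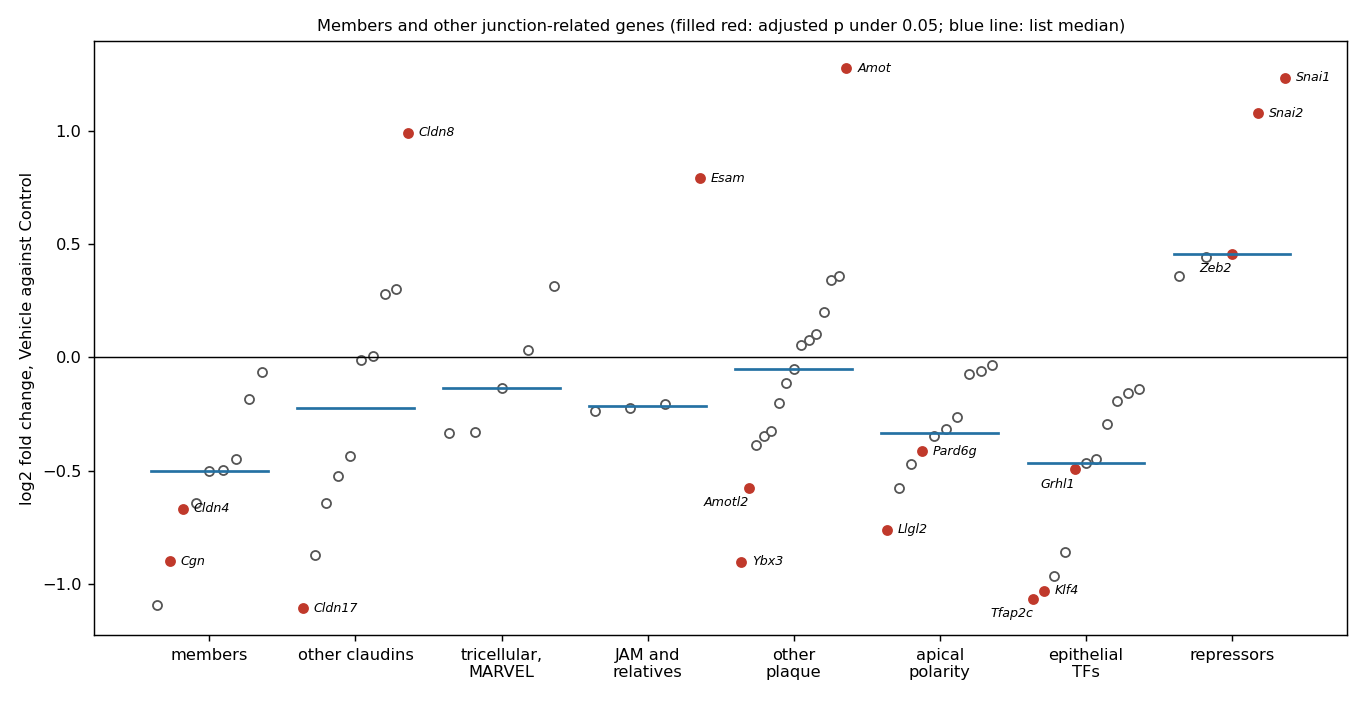
Log2 fold change of Vehicle against Control (vertical axis) for the 9 genes (members) and 7 lists of related genes. Points are genes, filled red where the adjusted p was under 0.05 by edgeR, and blue lines are list medians. The 9 genes have a median of −0.50, the epithelial transcription factors of −0.46 and the repressors of 0.46.

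Some transcription factors known to act on epithelial junction genes also changed in Vehicle. Of 11 tested epithelial factors 3 fell, none rose and 8 did not pass the test (median −0.46), where 6.92% of all genes fell. Of 5 repressors 3 rose, none fell and 2 did not pass (median 0.46), where 9.58% of all genes rose. Klf4, which the surface epithelium uses for barrier formation, had 523.1, 692.5 and 455.4 CPM in Control and 311.1, 246.2 and 262.1 CPM in Vehicle (log2 fold change −1.03, adjusted p = 0.00187 by edgeR). Tfap2c, an AP-2 factor, fell by 1.06 and Grhl1, a Grainyhead-like factor, by 0.49 on the log2 scale. Snai1, the E-box-binding repressor Snail, had 4.43, 4.92 and 4.35 CPM in Control and 11.2, 10.4 and 10.6 CPM in Vehicle (log2 fold change 1.23, adjusted p = 0.000142 by edgeR). Snai2 (Slug) rose by 1.08 and Zeb2 by 0.45. Klf4, Tfap2c, Snai1 and Snai2 were called without any 1 library, whereas Grhl1 was called in 2 of these 12 fits (those without Control replicate 1 or 3) and Zeb2 in 8, with adjusted p up to 0.173 and 0.0983 by edgeR. The Zeb2 call was lost without Control replicate 2 or 3 or Vehicle replicate 1 or 3.

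Against Control, Snai1 was also higher in UCS (6.13 to 7.18 CPM, log2 fold change 0.55) and UCPRP (7.65 to 8.32 CPM, 0.81), and so was Snai2 (0.56 and 0.81). The UCS calls of Snai1 and Snai2 were lost without Control replicate 1 or 3 or UCS replicate 2, that of Snai2 also without UCS replicate 3 (adjusted p up to 0.0776 and 0.128 by edgeR). Klf4 was lower in both (−0.79 and −1.07), and Tfap2c too (−1.16 and −1.22). The Klf4 call in UCS was lost without UCS replicate 2 (adjusted p = 0.0605 by edgeR). Ehf, an ETS factor of epithelia, fell in UCPRP (−0.78, called in all 12 fits), as did Grhl2 (−0.62, called in 4 of 12). No gene of these lists was called in UCS or UCPRP against Vehicle or between the biologics. Fibroblasts and leukocytes also express Snail-family and Zeb factors, and the summed leukocyte markers were 288.2 to 446.1 CPM in Control and 789.2 to 1084 CPM in Vehicle. Of 7 markers of keratocytes, the fibroblasts of the cornea, Col1a1 and Lum rose and Kera and Aldh1a1 fell in Vehicle, and their sums were 5634 to 7313 CPM in Control and 5810 to 9483 CPM in Vehicle. The part of these cells in the rise of the repressors was not tested.

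Snail-family repressors bind the E-box CAGGTG. It was sought on both strands (CAGGTG or CACCTG) in the 250 bases before each transcript start in the RefSeq promoter table of GRCm38.p6. The table gave 12 windows for the 9 genes. Some lie inside the gene spans given above, among them the Tjp1 window (65371245 to 65371494) and a Cldn7 window (69965171 to 69965420). The E-box lay in windows of 5 genes (Cldn4, Cldn7, F11r, Ocln and Tjp3), in 6 of 12 windows, against 17.2% of the 32851 windows in the table. The GC box GGGCGG (or CCGCCC) lay in windows of 8 genes, all but Tjp3, in 9 of 12 windows, against 32.7% of all windows. The Grainyhead-like site AACCGGTT was in no window of these genes and in 0.116% of all. The windows of the 2 called genes and of Cldn1, whose Vehicle level was nearest to Control, are printed 5′ to 3′ on the gene's strand, ending at the base before the start, with the E-box in capitals. They lie at chr3:94786483-94786732 (Cgn), chr5:134946935-134947184 (Cldn4) and chr16:26371840-26372089 (Cldn1), all on the minus strand.
Cgn: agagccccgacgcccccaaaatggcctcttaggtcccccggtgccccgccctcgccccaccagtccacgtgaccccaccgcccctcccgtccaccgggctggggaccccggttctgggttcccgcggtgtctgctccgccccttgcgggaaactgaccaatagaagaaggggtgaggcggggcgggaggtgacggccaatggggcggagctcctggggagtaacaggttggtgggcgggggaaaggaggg
Cldn4: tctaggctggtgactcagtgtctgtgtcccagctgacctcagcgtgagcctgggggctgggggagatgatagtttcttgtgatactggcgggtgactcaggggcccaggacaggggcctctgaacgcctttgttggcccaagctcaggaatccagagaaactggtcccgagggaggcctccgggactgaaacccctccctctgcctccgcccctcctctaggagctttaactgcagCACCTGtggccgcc
Cldn1: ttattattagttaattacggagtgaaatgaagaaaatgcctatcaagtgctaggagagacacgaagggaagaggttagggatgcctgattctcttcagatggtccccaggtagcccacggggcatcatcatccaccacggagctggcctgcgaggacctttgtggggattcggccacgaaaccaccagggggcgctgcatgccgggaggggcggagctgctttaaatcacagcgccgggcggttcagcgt
The Cldn4 window holds 1 E-box, which begins 14 bases before the start, and 1 GC box. The Cgn window holds 6 GC boxes and no E-box, and the Cldn1 window 2 GC boxes and no E-box. Cldn7 holds 2 E-boxes in 1 of its windows. A match describes these letters and shows no binding.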

How the data were processed

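RNA-seq was made from 12 pools of mouse cornea. HISAT and the build GRCm38 are named in the submitters' processing notes. The sources used here give no counting tool, annotation or use of strand. Per the file headers, the authors deposited estimated counts, headed as read counts, for each gene and library, with no scaling to library size. Of the values 64.9% were whole numbers and the rest held fractions, among them some of Tjp3, Ocln and F11r. They were rounded to whole numbers here.

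Of 19702 genes, 16124 passed filterByExpr (minimum count 10), all 9 tight junction genes among them. Counts were scaled with TMM and tested by quasi-likelihood (edgeR 4.0.16, R 4.3.3; 1 term per group, all 12 libraries, Benjamini-Hochberg adjustment over the 16124 genes). Standard errors (SE) were derived from the F statistic and the log2 fold change. The fit was first tested on simulated data. DESeq2 1.42.0 and limma 3.58.1 (voom), other scalings, a replicate block, covariates and leaving out each library were alternatives. Library totals ran from 18.55 to 20.44 M counts, and replicates differed by 17.87 to 85.92 times counting error (chi-square per degree of freedom), so no pair held the same library.

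The tight junction genes and all gene lists were chosen with earlier results of these data known. The text names these genes in every comparison, up to 4 called genes per other list and comparison (largest absolute change, mean of at least 1 count per 1 M, CPM), and the 5 genes most correlated with a pattern (mean of at least 5 CPM). Levels per kilobase use the exon union of GENCODE M21 basic transcripts on GRCm38. Promoter sequences come from RefSeq on GRCm38.p6. A result of 1 related gene is not reported here.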

Additional observations from a re-analysis of the deposited data

How the results depend on the processing

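The fall of Cgn in Vehicle was called under every alternative run, whereas the other calls among the 9 genes were not. All members called under any setting were lower, and brackets here give the share of all genes called lower in the same fit. With 2 genes called in Vehicle against Control (6.92%), the count became 5 with DESeq2 (7.94%). It was 1 with the 2 groups alone (3.82%), the replicate block (5.73%) or Dbp as a covariate (4.81%). With the retina covariate it was 5 (9.58%), and with the pan-epithelial covariate 7 (11.3%). Leaving out 1 library gave 1 to 4 (3.85% to 6.87%). For UCS against Control the count was 2 (4.47%). It became 1 with DESeq2 size factors (4.32%), total count scaling (4.02%) or no filter (3.51%). It was 0 with limma-voom (4.17%), the 2 groups alone (3.2%), the replicate block (3.79%) or Dbp (3.98%). Leaving out 1 library gave 0 to 2 (2.62% to 4.41%). For UCPRP against Control the count was 1 (5.07%). It became 2 with total count scaling (4.65%), 3 with DESeq2 (6.64%) and 0 with the 2 groups alone (3.38%). It was 2 with the retina covariate (5.24%) and 4 with the pan-epithelial covariate (7.14%). Leaving out 1 library gave 0 to 1 (2.76% to 5.28%). The count remained 0 in the other 3 comparisons under all alternatives. The cause of these shifts was not tested. Fits with fewer libraries also have fewer degrees of freedom.

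Total count scaling, added after the data were seen, moved the median log2 fold change of all genes to 0.11 in Vehicle and 0.12 in UCPRP against Control, and the calls in Vehicle to 2020 higher and 868 lower, from 1545 and 1116. With the 2 groups alone 604 genes were called lower, and with the pan-epithelial covariate 1823.

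The labels do not say whether the replicate numbers pair the libraries. Same-numbered deviations from the group means correlated above 0.1 in 7 of 18 pairs of libraries (−0.64 to 0.56). The replicate 1 libraries of Vehicle, UCS and UCPRP correlated with each other (0.388 to 0.559). Each of them correlated inversely with Control replicate 1 (−0.637 to −0.304). Deviations within a group depend on each other, so these values cannot decide whether the numbers pair. With the replicate block the adjusted p of Cldn4 in Vehicle against Control was 0.0591 by edgeR.

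No called value changed sign. Uncalled values that did were, for UCPRP against Vehicle, Cldn7 with Dbp (−0.0899), F11r, Tjp1 and Tjp3 with the retina covariate (0.0058, 0.0195 and 0.0806) and with the pan-epithelial one (0.0553, 0.0363 and 0.15). For UCPRP against UCS they were Cgn with the retina covariate (0.0171) and Cldn3 with the 2 groups alone (−0.0023) and with Dbp (−0.10). The others were Cldn1 in Vehicle against Control with total count scaling (0.0444), Cldn4 in UCS against Vehicle (0.0067) and Tjp1 in UCS against Control (−0.0439), both with the pan-epithelial covariate. With 1 library left out, the sign varied in Vehicle against Control for Cldn1 (−0.18 to 0.14). It did so in UCS against Control for Cldn7 (−0.36 to 0.19), Ocln (−0.26 to 0.0173) and Tjp1 (−0.0653 to 0.15), and in UCPRP against Control for Cldn1 (−0.11 to 0.20). Against Vehicle it varied in UCS for Cldn4 (−0.11 to 0.0498) and in UCPRP for Cldn1 (−0.0681 to 0.27), Cldn4 (−0.0788 to 0.23), F11r (−0.21 to 0.0147), Tjp1 (−0.20 to 0.0644) and Tjp3 (−0.14 to 0.0874). In UCPRP against UCS it varied for Cgn (−0.30 to 0.0125), Cldn3 (−0.17 to 0.30) and Cldn4 (−0.0636 to 0.25). At 288 or more counts per library for each gene, the spread between pools and not depth set the intervals.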
